A study of Caenorhabditis elegans with 2 samples.

Results

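The regions described here are the 805 SNPC-3.4 ChIP-seq candidate regions of the smaller piRNA cluster of Caenorhabditis elegans chromosome IV. They were chosen by position alone, as every region of the list called on both replicates together whose summit, the position of highest signal that the authors gave, lay between 4.5 and 7.0 Mb on ce11. The list holds 30000 regions over the genome. The 2 samples were biological replicates 1 and 2 of a single group, with no other group to compare. Each came from whole young adult hermaphrodites of the transgenic strain YL497, in which SNPC-3.4 (T02C12.2) carried GFP and FLAG at its C terminus, and an antibody to GFP was used on chromatin broken by sonication. All samples shared the transgene, and neither its promoter nor its copy number is stated in the labels. Whole worms mix germ line and soma, so binding in fewer cells and weaker binding per cell cannot be told apart in these data.

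The piRNAs of worms, called 21U-RNAs after their length and their first base, guide the Argonaute protein PRG-1 to foreign transcripts in the germ line. Nearly every one is made from its own very short gene by RNA polymerase II, and most of these genes lie in clusters on chromosome IV. The best known class has the word CTGTTTCA, called the Ruby motif, in its promoter, and its transcription needs SNPC-4, PRDE-1 and TOFU proteins. SNPC-4 and SNPC-3.4 are related to subunits of SNAPc, the complex that binds the proximal sequence element upstream of snRNA genes and recruits polymerases there. The cluster described here also holds protein-coding genes and a small number of snRNA, SL2 spliced leader, snoRNA and tRNA genes, so the same stretch of chromosome offers several kinds of promoter for comparison.

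The annotation fitted the name of the cluster. The 2.5 Mb held the 5' ends of 2816 piRNA genes, 1126 per Mb, and of 482 protein-coding genes, 193 per Mb. In the larger cluster of the same chromosome, at 13.5 to 17.2 Mb, the densities were 3078 piRNA genes and 124 protein-coding genes per Mb. The piRNA genes of the smaller cluster were spread over both strands, 1356 on plus and 1460 on minus. CTGTTTCA lay 42 to 51 bp upstream of 1111 of them on the same strand, or 39.5%, most often with its first base 46 bp upstream (390 genes). Of 1341 copies of the word in the cluster on either strand, 892 had such a place upstream of a piRNA gene.

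The sequences of 6 piRNA genes show what such a promoter looks like. The first 4 are those nearest to a strong SNPC-3.4 region of the cluster, and 21ur-193 and 21ur-9878 are nearest to weaker ones. Each line gives 60 bases upstream and the 21 bases of the 21U-RNA from RefSeq's WBcel235 (ce11) genome, 5' to 3' on the gene's strand, with the 21U-RNA and any upstream CTGTTTCA in capitals. Their positions are 21ur-11261 (chrIV:5364359-5364439, plus strand), 21ur-5229 (chrIV:5967029-5967109, plus strand), 21ur-11026 (chrIV:5950368-5950448, minus strand), 21ur-6496 (chrIV:6576592-6576672, minus strand), 21ur-193 (chrIV:4845185-4845265, plus strand), 21ur-9878 (chrIV:4833207-4833287, minus strand).
21ur-11261: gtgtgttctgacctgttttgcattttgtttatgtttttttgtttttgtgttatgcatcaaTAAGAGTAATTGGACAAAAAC
21ur-5229: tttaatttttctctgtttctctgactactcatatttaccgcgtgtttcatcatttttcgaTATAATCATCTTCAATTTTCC
21ur-11026: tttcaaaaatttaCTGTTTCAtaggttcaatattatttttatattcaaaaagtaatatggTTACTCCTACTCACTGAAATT
21ur-6496: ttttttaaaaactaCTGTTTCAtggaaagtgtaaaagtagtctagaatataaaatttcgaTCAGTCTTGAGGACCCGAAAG
21ur-193: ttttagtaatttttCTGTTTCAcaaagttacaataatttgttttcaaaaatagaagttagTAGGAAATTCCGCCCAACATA
21ur-9878: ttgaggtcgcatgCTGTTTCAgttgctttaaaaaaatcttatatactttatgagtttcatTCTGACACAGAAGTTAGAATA
All 6 annotated 21U-RNAs begin with T in the DNA. The word was present upstream of 21ur-11026, 21ur-6496, 21ur-193 and 21ur-9878, with its first base 46 or 47 bp before the 5' end, and was not in these 60 bases of 21ur-11261 or 21ur-5229.

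Many, but not all, of the snRNA, SL2 and snoRNA genes of the same cluster share other words upstream. The upstream sequences of 10 of these genes are shown. Each line gives the 60 bases from 90 to 31 bp upstream of the annotated 5' end. In the first 7, capitals mark a pair of words, GNAAC (N is any base) and, after 8 further bases, TGTC. In the last 2, capitals mark a run of 21 bases that both share. It reaches the end of the lines, so the shared run may be longer. ZK185.9 has neither pattern. Both patterns were picked after these sequences had been read. The positions are Y9C9A.111 (chrIV:4930864-4930923, plus strand), T08B6.62 (chrIV:4885680-4885739, minus strand), sls-2.17 (chrIV:5317399-5317458, minus strand), sls-2.13 (chrIV:5063562-5063621, minus strand), T08B6.64 (chrIV:4880881-4880940, minus strand), Y73B6A.14 (chrIV:6664586-6664645, minus strand), C06E7.95 (chrIV:5833090-5833149, minus strand), ZK185.9 (chrIV:4538947-4539006, minus strand), M03D4.78 (chrIV:6117907-6117966, minus strand), C17H12.36 (chrIV:6792884-6792943, plus strand).
Y9C9A.111: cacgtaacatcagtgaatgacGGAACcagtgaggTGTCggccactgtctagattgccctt
T08B6.62: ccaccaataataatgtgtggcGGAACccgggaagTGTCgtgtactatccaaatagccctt
sls-2.17: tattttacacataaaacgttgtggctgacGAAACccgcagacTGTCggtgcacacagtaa
sls-2.13: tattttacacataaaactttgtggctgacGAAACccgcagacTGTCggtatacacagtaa
T08B6.64: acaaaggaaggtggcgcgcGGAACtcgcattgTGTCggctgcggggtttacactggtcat
Y73B6A.14: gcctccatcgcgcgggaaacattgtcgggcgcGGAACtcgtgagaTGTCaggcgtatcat
C06E7.95: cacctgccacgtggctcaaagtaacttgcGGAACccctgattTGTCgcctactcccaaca
ZK185.9: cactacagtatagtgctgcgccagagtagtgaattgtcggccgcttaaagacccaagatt
M03D4.78: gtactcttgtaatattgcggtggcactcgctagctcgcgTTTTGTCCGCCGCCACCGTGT
C17H12.36: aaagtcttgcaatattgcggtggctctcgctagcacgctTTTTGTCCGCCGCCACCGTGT
The pair lay within the 100 bp upstream, on the gene's strand, of 10 of the 18 snRNA, SL2 and snoRNA genes of the cluster. It lay there at 0 of 2816 piRNA genes, 0 of 482 protein-coding genes and 0 of 9 tRNA genes. Over all chromosomes, 21 of 19973 protein-coding genes held it (0.105%). Of the snRNA, SL2 and snoRNA genes outside the cluster, 64 of 445 held it (14.4%). Among the genes of the cluster not shown, smy-7, K08F11.8, T19E7.29, C01B10.48 and Y73B6A.15 lacked it. In the cluster the pair began 58 to 71 bp upstream, and at each snRNA gene that held it it spanned 69 to 53 bp upstream, at each SL2 gene 61 to 45 bp.

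The 805 candidates were mostly weak. Their signal, the value that the authors' peak caller gave each region and that has no stated scale, had a median of 24.2 and ran from 18.3 to 434. The median over all nuclear candidates was 23.9, and in the larger cluster 23.1. The lists of candidates hold background together with peaks, per the deposited notes, and the authors also gave a thresholded list, which is the 2101 regions of highest signal in the list of 30000. It held 69 of the 805 members, or 8.57% (95% Wilson interval 6.83 to 10.7%), against 7.0% of all 30000 candidates. The larger cluster had 79 of 1076 (7.34%, 5.93 to 9.06%) and the rest of chromosome IV 256 of 3559 (7.19%). The share in the smaller cluster was therefore near the background, and its interval held the background value. Wilson intervals here and below cover counting error over regions or genes only.

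**Figure D1:**
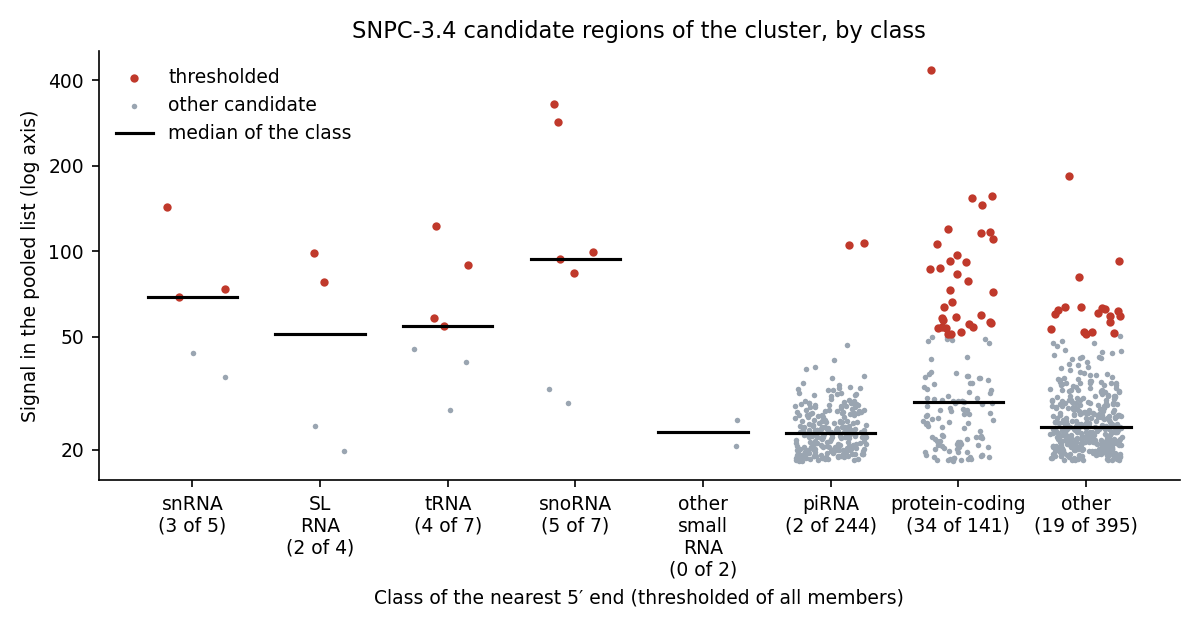
Signal of the 805 candidate regions in the list called on both replicates (log axis), grouped by the kind of gene with a 5' end near the summit (within 500 bp for protein-coding genes and 250 bp for the others). Where several kinds were near, snRNA, SL2, tRNA, snoRNA and other small RNA genes came before piRNA genes, and these before protein-coding genes. Red points are the 69 thresholded regions, grey points the other candidates and bars the class medians. The snRNA and snoRNA medians of 69.1 and 93.9 lie above the piRNA median of 22.9, and 2 of 244 piRNA regions are red.

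Members of highest signal stood at protein-coding promoters and snoRNA genes. The first was a region of 132 bp between rpl-18A, a ribosomal protein gene, and Y17G9B.5 (IV, 4749997 to 4750128), at place 34 of 30000. Its signal was 434 in the joint list, 140 in replicate 1 and 299 in replicate 2. The snoRNA genes M03D4.78 and T08B6.64 followed. M03D4.78 had 331 (replicates 152 and 179) with its summit 50 bp upstream of the 5' end, and T08B6.64 had 286 (90.6 and 193.9) with its summit 68 bp upstream. SnoRNAs guide chemical modification of other RNAs. The fourth, 657 bp upstream of usp-4 and near no small RNA gene, had 184 (69.3 and 109.9). All 4 were among the 147 highest candidates of each replicate.

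The summits of the snoRNA pair fall inside the upstream sequences shown above. For the other 2 of the highest members, the summit and 50 bases on each side are given, with the 11 bases at the summit in capitals. They are Y17G9B.5 (chrIV:4750011-4750111, plus strand), usp-4 (chrIV:6756604-6756704, plus strand).
Y17G9B.5: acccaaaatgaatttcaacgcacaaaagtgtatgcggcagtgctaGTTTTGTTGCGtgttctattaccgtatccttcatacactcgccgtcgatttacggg
usp-4: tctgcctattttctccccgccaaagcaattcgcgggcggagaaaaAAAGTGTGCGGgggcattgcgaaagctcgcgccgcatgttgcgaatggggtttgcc
Neither holds CTGTTTCA.

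Of the remaining members among the 20 of highest signal, 9 were at protein-coding 5' ends and 2 at further snoRNA genes. An snRNA gene, an SL2 gene and a tRNA gene had 1 each. The last 2 were classed at piRNA genes, 1 of them nearer to the protein-coding gene hda-6. The region at the tRNA gene, B0350.t1, also had a piRNA 5' end within 250 bp. Signals between 145 and 156 were seen at cyc-2.1, a cytochrome c gene (156, replicates 60.03 and 100.6), rme-2, the yolk receptor gene of oocytes (154, replicates 41.3 and 116), and tebp-2, which encodes a telomere-binding protein (145, replicates 52.8 and 91.4). F29B9.11 had 119, sqd-1, an RNA-binding protein gene, 117, and T22D1.5 116. The region between memi-1 and cyp-31A3, the second a cytochrome P450 gene, had 111. The SUMO-conjugating enzyme gene ubc-9 had 106 and puf-11, a PUF RNA-binding protein gene, 97.2. In each of these 9 protein-coding regions replicate 2 had the higher signal.

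Of the members at snRNA, SL2, snoRNA and tRNA genes, 3 of 5, 2 of 4, 5 of 7 and 4 of 7 were thresholded, against 34 of 141 at protein-coding promoters and 2 of 244 at piRNA genes. Over all nuclear candidates the shares were 62.3% at snRNA, 85% at SL RNA, 54.1% at snoRNA and 65.4% at tRNA genes. At protein-coding promoters 13.3% were thresholded and at piRNA genes 2.25%. Regions also near a small RNA or piRNA gene were not counted at protein-coding promoters. By distance alone, 36 of 182 members of the cluster with a protein-coding 5' end within 500 bp were thresholded. Over the genome too, the snRNA, SL RNA, snoRNA and tRNA shares lay above the protein-coding share, and that above the piRNA share. This coarse order is thus not particular to the cluster. The order among snRNA, SL RNA, snoRNA and tRNA genes differed, and their members in the cluster are too few to order them. Of 18 snRNA, SL2 and snoRNA genes with 5' ends in the cluster, 10 had a thresholded summit within 250 bp. They were 2 of 3 SL2 genes, 3 of 5 snRNA genes and 5 of 10 snoRNA genes, where over all chromosomes 83.3% of SL2, 42.4% of snRNA and 26.9% of snoRNA genes had one. Counts of 3, 5 and 10 genes are too few to tell these shares from those of the genome. No miRNA gene, of 9, had a thresholded summit near its 5' end. The share over all miRNA genes was not counted, so this says nothing particular about them.

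The snRNA genes, whose products act in splicing, differed among themselves. Y9C9A.111, in an intron of Y9C9A.8, had a signal of 144 (replicates 50.1 and 113.7), T08B6.62 73.8 (25.4 and 48.7) and Y17G9A.85 69.1 (11.95 and 58.8). The gene smy-7 had 43.7 and lay outside the thresholded list, and Y17G9A.90 had no candidate within 250 bp. Both Y17G9A.85 and Y17G9A.90 hold the pair of words. Copies of such genes share sequence, so the value of a single copy is uncertain. Within 250 bp of the 5' ends of Y17G9A.85 and Y17G9A.90 only 79.8% and 80.9% of 31-base words occurred once in the genome. The shares were alike at T08B6.62 (80.3%) and Y9C9A.111 (81.1%), and smy-7 had 93.8%. This share therefore does not set the weaker copies apart from Y9C9A.111.

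The SL2 RNAs are joined to the 5' ends of downstream messages of operons by trans-splicing. Their genes sls-2.17 and sls-2.13 had signals of 98.5 (33.5 and 72.8) and 78.2 (12.3 and 61.6), with summits 21 and 56 bp upstream. At sls-2.12, which also holds the pair of words, the highest candidate had 24.3, with its summit 190 bp downstream of the 5' end. Only 54.8% of the 31-base words around the sls-2.12 5' end were unique, against 82.6% around sls-2.17. The part of repeated sequence in this difference was not tested.

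Among the snoRNA genes, C17H12.36 had 99.7 (21.8 and 82.7), Y73B6A.14 93.9 (41.3 and 66.8) and ZK185.9 84.1 (28.8 and 53.5). Their summits lay 45, 35 and 25 bp upstream. M03D4.78 and C17H12.36 are the genes that share the run of 21 or more bases, which begins 51 bp upstream of both. K08F11.8 had 32.8 outside the thresholded list, and C06E7.95, T19E7.29, C01B10.48 and Y73B6A.15 had no candidate within 250 bp. C06E7.95 holds the pair of words all the same, and its surroundings were 100% unique.

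The pair of words was picked from upstream sequences of these same snRNA, SL2 and snoRNA genes, so its counts in the cluster are a description and support nothing. There 7 of 10 genes with the pair had a thresholded summit (70.0%), against 3 of 8 without it (37.5%). Outside the cluster, 52 of 64 genes with it had a thresholded summit (81.3%), against 88 of 381 without it (23.1%). These figures pool classes of unlike size, and over all chromosomes 311 of the genes without it were snoRNA genes. By class, over all chromosomes and with the cluster included, the shares with and without it were 85.7% and 20.3% at snoRNA genes. They were 70.0% and 30.4% at snRNA genes, and 88.9% and 77.8% at SL2 genes, with 9 SL2 genes on each side. Copies of a gene family share both the words and the reads, so these genes are not independent of each other. Around summits, within 100 bp and on either strand, the pair occurred at 10 of 69 thresholded members (14.5%, 8.07 to 24.7%) and at 4 of 736 others (0.543%), with 0.414% of positions of the cluster as background. Of the 10, 7 were at the genes from which the pair was picked. Away from snRNA, SL2 and snoRNA genes it was at 3 of 59 thresholded members (5.08%, 1.74 to 13.9%), those of F29B9.5, tctn-1 and pqn-89, the last 5314 bp upstream of its gene.

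The tRNA genes are transcribed by RNA polymerase III from promoters inside the gene. Of 9 in the cluster, 4 had a thresholded summit within 250 bp, where 58.2% of 612 tRNA genes had one over the genome. The tRNA-Lys gene B0350.t1 had 123 (54.3 and 75.9), the tRNA-Val gene Y73B6BL.t1, within tyr-6, 89.4 (35.3 and 55.4), the tRNA-Gln gene Y4C6B.t1 58.4 (13.2 and 49.6) and the tRNA-Lys gene C09B9.t1 54.4 (24.6 and 33.5). At B0350.t1, Y73B6BL.t1 and Y4C6B.t1 the summit lay 69, 17 and 40 bp inside the gene, and at C09B9.t1 26 bp upstream. The tRNA-Trp gene Y4C6B.t2 had 45.3 outside the thresholded list, with 10.7 in replicate 1 and 43.4 in replicate 2. These tRNA genes held none of the pair of words upstream.

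**Figure D2:**
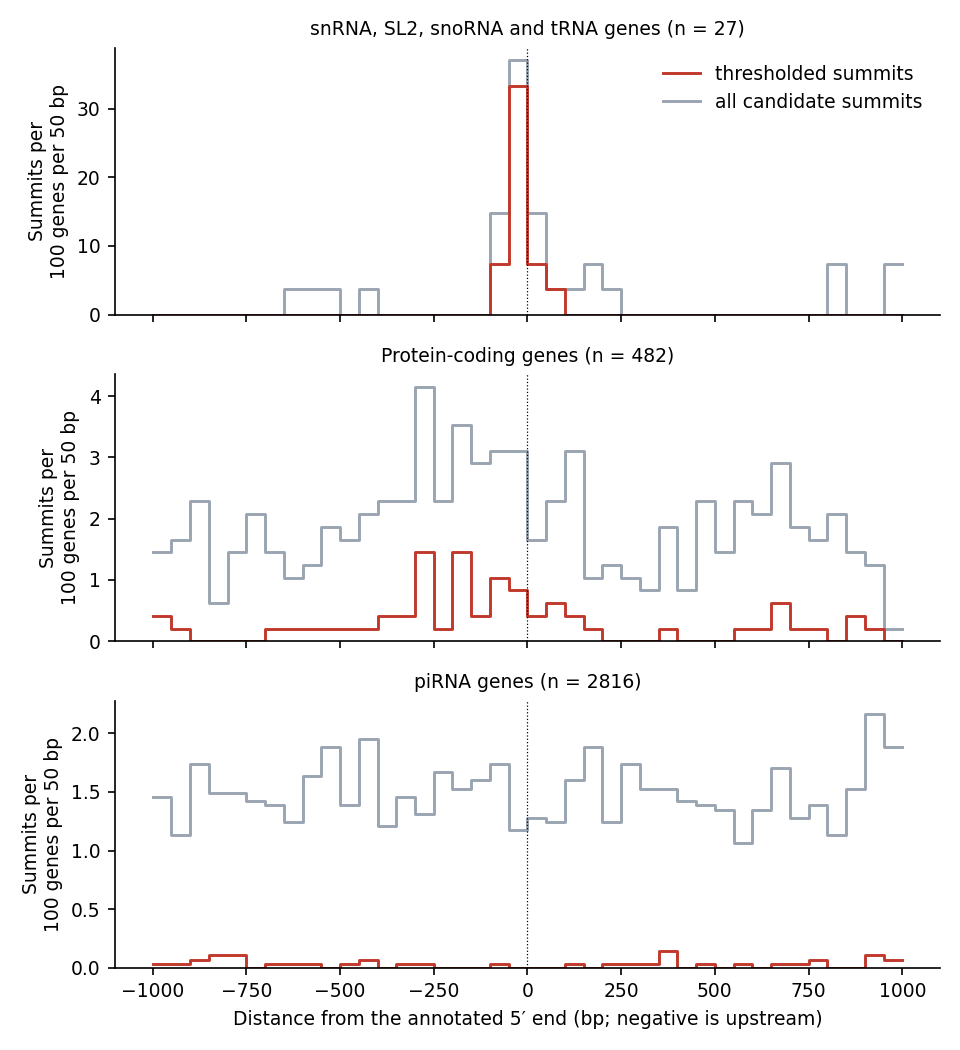
Summits per 100 genes in steps of 50 bp, by distance from the annotated 5' end (negative is upstream), for the 27 snRNA, SL2, snoRNA and tRNA genes, the 482 protein-coding genes and the 2816 piRNA genes of the cluster. Red lines count thresholded summits and grey lines all candidate summits. The first kind has 33.3 thresholded summits per 100 genes in the 50 bp before the 5' end, and no step around piRNA genes has more than 0.142.

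At piRNA genes the picture was different. Of the 2816 genes, 3 had a thresholded summit within 250 bp of the 5' end, or 0.107% (0.0362 to 0.313%), where 0.332% of the 15363 piRNA genes of the genome had one. Seen from the regions, 3 of 69 thresholded members had a piRNA 5' end within 250 bp (4.35%, 1.49 to 12.02%), against 242 of 736 other members (32.9%, 29.6 to 36.4%) and 33.7% of the length of the cluster. Within 100 bp the counts were 1 of 69 (1.45%) and 116 of 736 (15.8%), with 16.97% of the length. Members outside the thresholded list thus lay by piRNA genes about as often as a position in the cluster does, and those in it less often, with an interval that ended below the share of length. A signal that is weak or spread over many piRNA genes cannot be read from lists of regions, which hold no read counts.

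Of the 3 thresholded members near piRNA genes, 1 was also at a protein-coding promoter and 1 at a tRNA gene. The region at 21ur-11026 (IV, 5949992 to 5950291) had 107, with its summit 246 bp downstream of the 5' end, 59.7 in replicate 1 and 44.1 in replicate 2. It is 1 of the 6 thresholded members with the lower signal in replicate 2. The region at 21ur-11261 (IV, 5364191 to 5364490) had 105 (33.5 and 69.4). Its summit lay 78 bp upstream of the piRNA gene and also 35 bp upstream of hda-6, a histone deacetylase gene on the other strand, with F41H10.4 within 500 bp. The third is the tRNA-Lys gene B0350.t1, whose summit was 140 bp downstream of the 5' end of 21ur-5229. The next nearest thresholded member, near C43G2.3 (62.7, replicates 10.9 and 49.002), lay 255 bp upstream of 21ur-6496.

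The summit sequences of these 4 regions show what stood at the strongest signal near piRNA genes. They are 21ur-11261 (chrIV:5364291-5364391, plus strand), B0350.t1 (chrIV:5967179-5967279, plus strand), 21ur-11026 (chrIV:5950092-5950192, minus strand), C43G2.3 (chrIV:6576817-6576917, plus strand), each with 50 bases on both sides of the summit and the 11 at the summit in capitals.
21ur-11261: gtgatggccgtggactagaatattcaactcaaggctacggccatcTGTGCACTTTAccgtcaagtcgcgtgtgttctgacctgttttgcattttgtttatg
B0350.t1: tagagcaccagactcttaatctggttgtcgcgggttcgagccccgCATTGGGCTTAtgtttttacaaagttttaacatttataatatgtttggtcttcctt
21ur-11026: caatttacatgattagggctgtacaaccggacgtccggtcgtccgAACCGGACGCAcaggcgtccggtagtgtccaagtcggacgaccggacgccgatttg
C43G2.3: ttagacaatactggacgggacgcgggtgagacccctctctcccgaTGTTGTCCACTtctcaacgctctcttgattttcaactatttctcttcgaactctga
None holds CTGTTTCA. The region at B0350.t1 includes the end of the tRNA gene, and that at 21ur-11026 has a GC content of 59.4%, against 29.7% for the median member within 250 bp of a piRNA 5' end.

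In each replicate on its own the count near piRNA genes stayed low. Among the 2101 highest candidates of replicate 1, 66 lay in the cluster and 6 of them had a piRNA 5' end that near (9.09%). For replicate 2 the counts were 68 and 4 (5.88%). The regions at 21ur-11026, 21ur-5229 and 21ur-11261 were in both sets. Replicate 1 added regions at 21ur-8864, which is that of the snRNA gene T08B6.62, at 21ur-12572 and at 21ur-7565, and replicate 2 added 1 at 21ur-1357.

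Of the members outside the thresholded list, those with a summit within 100 bp of a piRNA 5' end and no protein-coding 5' end within 500 bp were led by 21ur-1357. It lies in an intron of fkh-7, a forkhead gene, and had 46.8 at place 2461, with 10.5 in replicate 1 and 33.2 in replicate 2. Next was 21ur-10115 with 41.3 (21.4 and 19.5). The other 8 of the 10 highest, at 21ur-5073, 21ur-6599, 21ur-12730, 21ur-10105, 21ur-11229, 21ur-193, 21ur-11733 and 21ur-9878, had 33.9 down to 30.0. Of these 10 regions, 7 had a candidate within 250 bp in both replicates, and 21ur-193 and 21ur-9878, both in introns of tat-2, were those with CTGTTTCA within 100 bp of the summit.

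The Ruby motif was also rare at strong summits. CTGTTTCA lay within 100 bp of 0 of 69 thresholded summits, for which the Wilson interval ends at 5.27%, and of 72 of 736 others (9.78%, 7.84 to 12.1%), against 9.96% of positions in the cluster. In the larger cluster the counts were 0 of 79 and 203 of 997 (20.4%), against 17.7% of positions. Over the genes, 163 of 1111 piRNA genes with the word upstream had a candidate within 250 bp (14.7%), against 252 of 1705 without it (14.8%), and 1 against 2 of them had a thresholded one. The member of highest signal with the word nearby was 1943 bp upstream of bec-1, an autophagy gene, with 50.3. It was followed by the tRNA gene Y4C6B.t2 (45.3), then by regions in an exon of ari-2 (36.1), an intron of soc-2 (34.8) and an exon of rpn-1 (32.0). In the first 2 of these the word stood over 50 bp from the summit, and none of the 5 was within 250 bp of a piRNA 5' end.

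With the members ordered by signal and cut into 5 groups of 161, shares near piRNA genes were alike over the 4 lower groups and lower in the highest. From the lowest up, 39.8%, 32.3%, 37.9% and 32.3% of the 4 lower groups had their summit that close to a piRNA 5' end (250 bp), and each interval held the 33.7% share of the length. In the highest group it was 16 of 161 (9.94%, 6.21 to 15.5%), and without the 69 thresholded members it was 13 of 92 (14.1%, 8.45 to 22.7%). Protein-coding 5' ends went the other way, with 19.9%, 18.6%, 15.5% and 18.6% in the 4 lower groups and 40.4% (33.1 to 48.1%) in the highest, beside 18.1% of the length. In the larger cluster the highest group had 33.95% near piRNA 5' ends, against 66.5 to 72.2% in the lower groups.

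**Figure D3:**
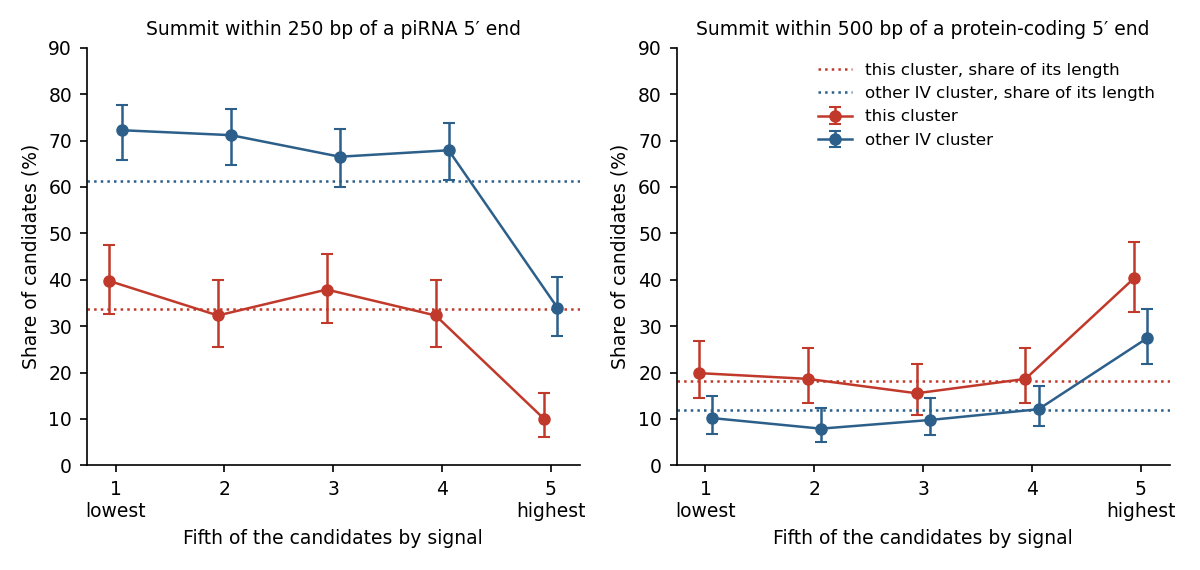
Share of candidate regions with the summit within 250 bp of a piRNA 5' end (left) or 500 bp of a protein-coding 5' end (right), by group of signal from lowest (1) to highest (5), in the smaller cluster (red) and the larger cluster of chromosome IV (blue). Bars are 95% Wilson intervals and dotted lines the share of each cluster's length within those distances. In the highest group the red points stand at 9.94% (left) and 40.4% (right).

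GC content moved with these shares. From 50 bp before the summit to 50 bp after it, thresholded members had a median GC content of 43.6% and other members 33.7%. The GC content of all bases within 250 bp of a piRNA 5' end was 30.7%. Among members under 35% GC, 0 of 17 thresholded and 185 of 413 others (44.8%) had a piRNA 5' end within 250 bp. Among those at 35% or above, 3 of 52 (5.77%) and 57 of 323 (17.6%) did. At 35% or above the intervals overlapped (1.98 to 15.6% and 13.9 to 22.2%). Under 35% they did not (0 to 18.4% and 40.1 to 49.6%). The called region, with a median length of 300 bp, consisted of unique 31-base words alone at 75.4% of thresholded and 89.8% of other members. For piRNA 5' ends the share was 91.2%, over a longer stretch of 250 bp on each side. The part of GC content and of repeats in these shares was not tested.

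Protein-coding promoters held more of the thresholded members than any other class. The summit had a protein-coding 5' end within 500 bp in 36 of 69 thresholded members (52.2%, 40.6 to 63.5%) and in 146 of 736 others (19.8%, 17.1 to 22.9%), with 18.1% of the length. In the larger cluster the shares were 38.0% and 11.5%, with 11.9% of the length. Of the 36 summits, 28 lay upstream of the nearest 5' end, the median was 133.5 bp upstream, and 5 faced 5' ends on both strands. Many worm messages are trans-spliced, so an annotated 5' end is often not the start of transcription. Seen from the genes, 41 of 482 (8.51%, 6.33 to 11.3%) had a thresholded summit within 500 bp, where 7.04% of all protein-coding genes had one.

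Most gene families had too few genes in the cluster to set their counts against the 8.51% of all its protein-coding genes. Both ribosomal protein genes, rpl-18A and rps-25, had a thresholded summit, the second with 78.4 (36.0 and 45.7). Of 40 chemoreceptor genes, which act in sensory neurons, 1 had one, srw-95, with 58.4. The 9 major sperm protein genes, 3 nuclear hormone receptor genes, 3 F-box genes, 2 collagen genes, 1 proteasome gene and 1 translation gene had none, and no histone gene lies there. Of the listed genes for piRNA transcription and processing that were found by symbol, none has its 5' end in the cluster. The symbol prg-2 was not found, so the place of that gene was not checked. Elsewhere in the genome, 1 of 6 transcription factors of piRNA genes (snpc-4) had a thresholded summit. Of the 10 processing and binding factors found, 1 (tofu-6) had one.

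GCGAGACC, a word already known from all thresholded regions of these data to be frequent at summits, occurred within 100 bp of 7 of 69 thresholded members (10.1%, 5.00 to 19.5%) and 2 of 736 others (0.272%), with 0.580% of positions. The regions from which the word was known include these 69, so its counts here are a description and support nothing. Over the genome it was at 7.33% of thresholded regions and 1.41% of all candidates. The 7 were those of F29B9.11, sqd-1, T22D1.5, puf-11, psr-1, rps-25 and cec-6, none of them a small RNA gene. None of the 7 was among the 10 thresholded members with the pair of words. With 7 and 10 of 69 members, the lack of overlap is too small a count to read.

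Thresholded members also stood close together in places. With summits up to 3000 bp apart joined, 24 of 69 formed 9 runs. The longest held 5 within 5712 bp (IV, 4744349 to 4750061), at elac-2, timm-17B.1, tctn-1, cyc-2.1 and the rpl-18A and Y17G9B.5 promoter, with signals of 54.0 to 434. Another held inx-7, rps-25 and the region at 21ur-11026, the last 2537 bp upstream of rps-25. By position in protein-coding gene models, 62.3% of thresholded members lay between genes, 17.4% in introns, 11.6% in UTRs and 8.70% in coding exons, against 41.8%, 31.1%, 4.15% and 22.7% of the length.

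Members with no protein-coding 5' end within 500 bp and no small RNA or piRNA 5' end within 250 bp numbered 395. Of these, 19 were thresholded (4.81%), where 564 of 20613 such candidates of the genome were (2.74%). After usp-4 the highest were in an intron of psr-1 (92.5), in the UTR of prkl-1 (81.4), 1895 bp upstream of nhr-249 (63.9) and 991 bp upstream of Y73B6BL.22 (63.5). The region in psr-1 was 665 bp inside its gene. Widening the distance to 1000 bp brought 45 of the 69 thresholded members within reach of a protein-coding 5' end (65.2%, with 33.6% of the length).

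Along the cluster, counts of thresholded members were set against the density of piRNA genes. Of 25 bins of 100 kb, the 14 with 100 or more piRNA genes held 30 thresholded among 452 candidates (6.64%, 4.69 to 9.32%), and the other 11 held 39 among 353 (11.0%, 8.19 to 14.7%), and these intervals overlap. Candidates of any signal were equally frequent, 32.3 and 32.1 per bin. Across the 25 bins the count of piRNA genes had a Pearson r of -0.50 and a Spearman rho of -0.48 with thresholded members, and -0.04 and -0.03 with all candidates. Neighbouring bins share genes and chromatin, and bins rich in piRNA genes had fewer protein-coding genes (r = -0.35, rho = -0.36), so these values describe the cluster and were not tested. Bins with 0 thresholded members were 3 of the 14 dense ones, with 210, 215 and 220 piRNA genes, and 2 of the other 11, with 88 and 93. The bin with 211 held 2.

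**Figure D4:**
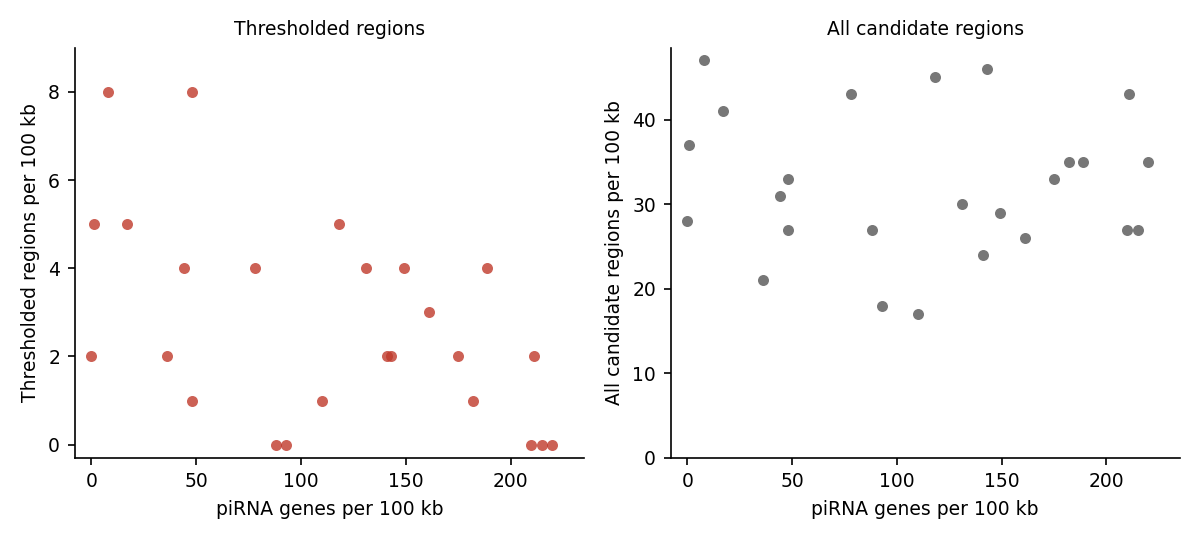
Thresholded regions (left) and all candidate regions (right) per bin of 100 kb against the number of piRNA genes in the bin, for the 25 bins of the cluster. The highest counts of thresholded regions, 8 per bin, are in bins with 8 and 48 piRNA genes, and the bins with 88, 93, 210, 215 and 220 piRNA genes have 0. Candidates range from 17 to 47 per bin.

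Thresholded members nearly all had some candidate in both replicates, though not always a strong one. Of the 69 thresholded members, 68 had a candidate summit within 250 bp in both replicates, and Y73B6BL.29 (51.95) had none in replicate 1. Of the 736 others, 249 had (33.8%). Of the 69, 50 were among the 2101 highest candidates of replicate 1, 58 among those of replicate 2, and 40 in both. The thresholded region of sls-2.13, for example, was at place 11303 in replicate 1. Across thresholded members the replicates' signals had a Spearman rho of 0.46. Both replicates also feed the joint list, so these matches are not independent of the choice of members.

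Signal was mostly higher in replicate 2, but neither scale is stated, so the ratios only set regions against each other. For the 68 matched thresholded members the median log2 ratio of replicate 2 over replicate 1 was 0.82, with a range of -0.73 to 2.33, beside 0.75 for 2049 nuclear thresholded regions of the genome. The highest ratios were at sls-2.13 (2.33), Y17G9A.85 (2.30) and the region near C43G2.3 (2.17), with signals of 10.9 to 12.3 in replicate 1 and 49.002 to 61.6 in replicate 2. The lowest were at cec-6 (-0.73, signals 33.8 and 20.4), 21ur-11026 (-0.44) and Y4C6B.1 (-0.39). For the 317 members matched in both, log2 signals gave r = 0.69 (Pearson) and rho = 0.48 (Spearman) across regions that share their libraries.

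**Figure D5:**
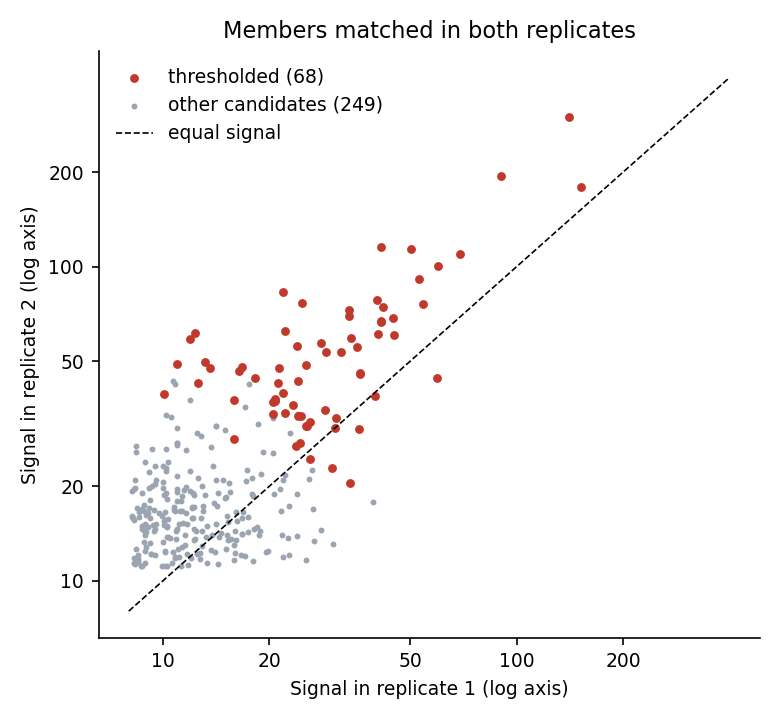
Signal in replicate 1 against replicate 2 (log axes) for the members with a candidate summit within 250 bp in both replicates. Red points are 68 thresholded members, grey points 249 others and the dashed line equal signal. Of the red points 6 lie below the line.

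The threshold fell among regions of like signal. The lowest members inside it were at skn-1 (51.3, an Nrf-type transcription factor gene), T11F8.4 (51.3) and sar-1 (51.2, a GTPase gene of the secretory pathway). Just outside were the regions near bec-1 (50.3), C49A9.10 (49.99) and drh-1 (49.9, a gene related to RIG-I helicases). None of the 6 had a piRNA 5' end within 250 bp. The deposited score column, which has no stated meaning and holds values below 0, was not used for any result.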

How the data were processed

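Candidate regions of 2 biological replicates, each alone and both joined, and a thresholded list were deposited by the authors on ce11 and ce10. Regions were called on alignments against a control, per the deposited notes. The control is not analysed here. Which aligner and peak caller were used, and the read depth, is not given in the sources used here, so no value has a depth behind it. Column 7 holds the signal the authors' caller gave each region, with no stated scale, and was compared within 1 list only. The deposited score of column 9 holds values below 0 and was not used.

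Summits were set against 5' ends of Ensembl release 115 (WBcel235, the same assembly as ce11). A gene was near within 250 bp (500 bp for protein-coding genes), and replicate summits matched within 250 bp. GC content was taken from 50 bp before the summit to 50 bp after it. Shares carry 95% Wilson intervals. Small RNA genes came before piRNA genes, and these before protein-coding genes, where a summit was near several. Genes were named by rank of signal and by distance to piRNA 5' ends. With 1 group of 2 replicates no test was made. Counting was checked on simulated regions. Members, gene lists and sequence words were chosen with earlier results of these data known. The work was done in Python 3.11.15 with SciPy 1.17.1, pandas 2.3.3 and NumPy 2.4.6, and plots in matplotlib 3.10.9.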

Additional observations from a re-analysis of the deposited data

How the results depend on the processing

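Of 53 alternatives over 11 results, 33 kept the value within its interval or, for counts, within 1.5 times, 20 moved it and 0 reversed it. A reversal could be recorded only for the log2 ratio of the replicates, so this 0 says nothing of the other results. With the 1000 highest regions in place of the thresholded list, 3.85% of members were in it (3.33% of all candidates) and 100% of those were matched in both replicates. With members within 1000 bp merged, 11.5% held a thresholded region and 34.3% were near a piRNA 5' end. At 100 and 500 bp from a piRNA 5' end, shares were 14.5% and 42.6% of members (16.97% and 47.4% of the length), 1.45% and 17.4% of thresholded members, and 5.50% and 27.8% of piRNA genes. At 250 and 1000 bp from a protein-coding 5' end, they were 13.9% and 37.9% of members (9.43% and 33.6% of the length) and 37.7% and 65.2% of thresholded members. CTGTTTCA lay within 50 and 250 bp of 4.22% and 22.4% of member summits (4.98% and 22.6% of positions). Matching within 100 bp left 88.4% of thresholded members in both replicates. Leaving out a replicate gave 773 to 805 regions, thresholded shares of 8.45 to 8.54%, 28.7 to 30.3% of regions near piRNA and 22.1 to 22.6% near protein-coding 5' ends. Of the highest regions, 5.88 to 9.09% and 48.5 to 51.5% were near them. CTGTTTCA was at 8.94 to 9.06%, 13.3 to 14.3% of piRNA genes had a region, and median signals were 11.0 to 15.2, each on its own scale. No paired analysis was possible because there was 1 group. The read depth is unknown, so a region missing from a list is not shown to be unbound.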
